A study of Mus musculus with 2 samples.

Results

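The gastrokines and the trefoil peptides are small proteins that the stomach epithelium secretes, and their 6 mouse genes are Gkn1, Gkn2, Gkn3, Tff1, Tff2 and Tff3. They were chosen by name, as the genes whose probes carry these symbols in the array files, where Gkn3 has its older name 1190003M12Rik. Each was covered by 1 probe in 1 spot, out of 41174 gene probes on the array. The RNA came from the pylorus, the last part of the stomach, of 20 mice with a knock-in allele, Lgr5-EGFP-ires-CreERT2. Their age is not given in the sources used here. In these mice green fluorescent protein (GFP) and a tamoxifen-inducible Cre recombinase are made from the locus of Lgr5, a receptor of the Wnt pathway and a stem cell marker. The dissociated cells were sorted into a bright population, GFPhigh, and a dim population, GFPlow, so both carry the same allele and differ in the brightness of GFP. No treatment is named in the labels. The RNA of both populations was hybridised together on 2 Agilent arrays with the dyes exchanged: GFPhigh was labelled with Cy3 on array 1 and with Cy5 on array 2.

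Both arrays measured the same pair of RNA samples, which makes them 2 technical readings of 1 replicate, so GFPhigh and GFPlow could not be tested against each other and p-values are left out. Each value below is the log2 ratio of GFPhigh over GFPlow on each array, or their mean ± SD (n = 2 arrays). That SD shows the scatter of labelling, hybridisation and scanning, and any dye bias left after normalization, since the dyes were exchanged. It does not show the scatter of animals. Counts of higher genes take those that differ 2-fold or more, in 1 direction, on each array. The number of arrays limits the precision, and in sorted bulk RNA fewer cells of a type and less RNA per cell cannot be told apart.

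Between 18.2% and 31.2% of gene probes were well above background in a given population and array, and 7819 genes could be compared, with a median log2 ratio of -0.06. The sorted gene Lgr5 was higher in GFPhigh, at 2.33 on array 1 and 2.24 on array 2. All 6 epithelial markers examined (Epcam, Cdh1, Krt8, Krt18, Krt19 and Cldn18) were above background in both populations, and 1 of them, Krt19, was higher in GFPlow. None of 6 leukocyte markers and none of 3 endothelial markers was above background, while 2 of 6 markers of fibroblasts and smooth muscle were, Col1a2 (0.60 ± 0.75) and Acta2 (-0.55 ± 0.16). Of the markers of other stomach cells, Cblif, Pgc and Pga5 of chief cells were higher in GFPhigh, and Chia1, also of chief cells, was higher in GFPlow. Of 5 enteroendocrine markers 4 were higher in GFPlow. Of 4 tuft cell markers 2 were measured, Avil (-1.09 ± 0.07), which was higher in GFPlow, and Alox5 (-0.74 ± 0.08), and neither was above background in GFPhigh. Of 3 parietal cell markers, Atp4b (0.76) and Atp4a (0.33) were higher in neither. The other was Cblif, which was listed for chief and parietal cells alike and was higher in GFPhigh. The part of these cells in the ratios below was not tested.

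Gastrokines hold a BRICHOS domain, a fold found in proteins that need help to avoid misfolding. Trefoil peptides hold the trefoil domain, a compact loop structure pinned by disulfide bonds that resists digestion, and they are secreted together with mucins, with which they form the protective gel. In the stomach the family is divided along the gland. Gkn1, Gkn2 and Tff1 are products of the surface mucous (pit) cells, which make the mucin Muc5ac. Gkn3 and Tff2 are products of mucous neck cells and of the mucous cells at the gland base, which make the mucin Muc6. Tff3 belongs mainly to the goblet cells of the intestine.

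The pit members were all higher in GFPlow, and of the gland-base members Gkn3 was higher in GFPhigh. These 3 genes in GFPlow and 1 gene in GFPhigh stand against a background of 2.7% of all genes compared that were higher in GFPlow and 1.76% that were higher in GFPhigh. Tff2 leaned to GFPhigh but was under 2-fold on array 1. Tff3 was near 0 on both arrays and dim.

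Gkn2 encodes a gastrokine that is known to form a disulfide-linked dimer with Tff1. The opening bases of the probe that measured it, which lies at chr6:87329285-87329344 in the mm9 build of the array files, identify the transcript read out:
Gkn2: aattcacctttaagatggtccatcaactgg
The spot had a mean intensity of 7856 in GFPhigh and 77975 in GFPlow on array 1. On array 2 it had 3614 in GFPhigh and 148735 in GFPlow. The GFPlow signal was thus the brighter on both arrays, whichever dye it carried. Its log2 ratio of -3.63 (array 1) and -2.85 (array 2) had a mean of -3.24 ± 0.55, that is, 9.45-fold higher in GFPlow. Only 2 of the 7819 genes had a lower mean ratio.

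Tff1 encodes the trefoil peptide of pit cells, a partner of the mucin Muc5ac and of Gkn2. Its probe begins as follows, and the array files place it at chr5:143285707-143285766 (mm9), although the RefSeq gene table has Tff1 on chromosome 17:
Tff1: cccttctaaggtccatcctgagagaactgg
The probe is assigned to Tff1 through its RefSeq accession, and the position given by the files was not used. Its intensity on array 1 was 11800 in GFPhigh and 152958 in GFPlow. On array 2 it was 6803 in GFPhigh and 223577 in GFPlow. The populations were again ordered alike with both dyes. Normalized, Tff1 stood at -4.00 on array 1 and at -2.41 on array 2. The mean of -3.20 ± 1.12 is 9.21-fold higher in GFPlow, and 3 genes had a lower one.

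Gkn1 encodes a gastrokine, a product of pit cells that is often lost in stomach cancer. Its probe lies at chr6:87295866-87295925 (mm9) and starts with these bases:
Gkn1: tgtttttcctgcaaggagccagaagtatca
The intensity in GFPlow was 372 on array 1 and 521 on array 2, over a local background of 133 and 56. In GFPhigh it was 118 and 168, over a local background of 60 and 133, and both spots failed the scanner's test for being well above background. Only a bound can be given, for the processing used here: Gkn1 was at least 3.07-fold higher in GFPlow. Without background correction the mean log2 ratio of Gkn1 was -1.20, a smaller fold than this bound. The bound sets the mean level in GFPlow against that in GFPhigh. In GFPhigh each array's value is the higher of the level of Gkn1 and the lowest level of any probe well above background. The level of each channel was rebuilt from the ratio and the average signal, after the average signals of the 2 arrays were given the same distribution. The mean normalized log2 levels of Gkn1 were 8.30 in GFPlow and 6.45 in GFPhigh. The measured log2 ratios were -1.93 and -1.77, a mean of -1.85 ± 0.12. This SD is the smallest of the pit members, but it describes a ratio in which the GFPhigh signal carried little more than background.

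**Figure D1:**
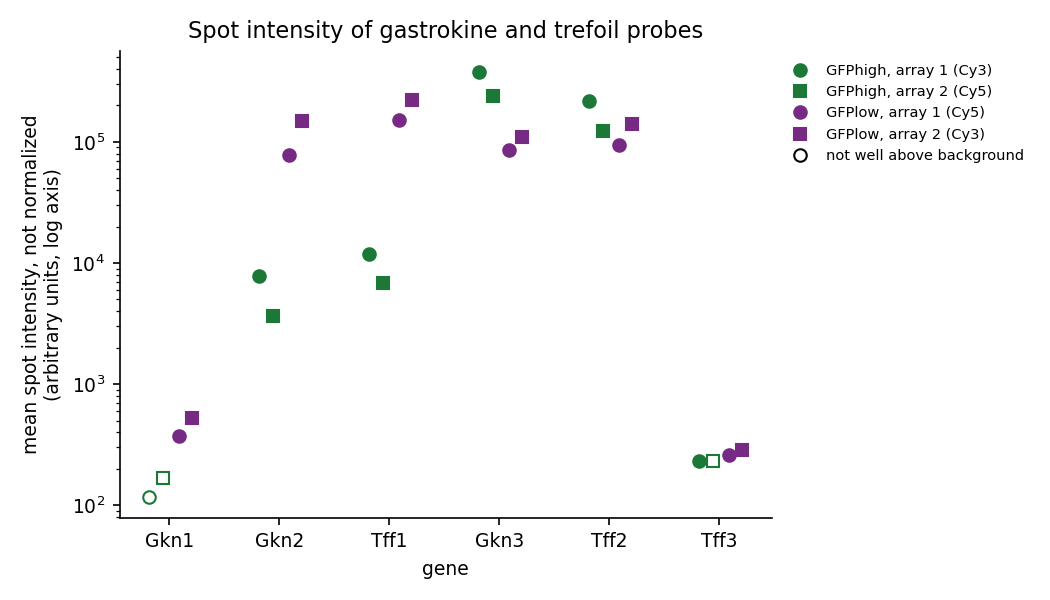
Mean spot intensity (arbitrary units, not normalized, log axis) of the 6 probes in GFPhigh (green) and GFPlow (purple) on array 1 (circles) and array 2 (squares); open symbols are not well above background. For Gkn1, Gkn2 and Tff1 every GFPlow point lies above every GFPhigh point, for Gkn3 the reverse holds, and for Tff2 the points interleave.

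Gkn3 encodes the gastrokine of mucous neck and gland-base cells. Its probe lies at chr6:87333375-87333434 (mm9). Each of its reading frames holds a stop codon, first at bases 40, 53 and 3, and the coding frame was not determined. The probe is shown whole, with the stop codon of the second frame, which begins at base 53, in capitals:
Gkn3: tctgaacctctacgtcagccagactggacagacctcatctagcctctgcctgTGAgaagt
The intensity was 377922 in GFPhigh and 85979 in GFPlow on array 1, and 238171 in GFPhigh and 110378 in GFPlow on array 2. GFPhigh was the brighter with both dyes. Gkn3 stood at a log2 ratio of 1.89 on array 1 and 4.02 on array 2. Its mean of 2.96 ± 1.51, or 7.76-fold higher in GFPhigh, was passed by 2 genes. Its direction was the same on both arrays, but its size was not settled by them: the fold was 3.70 on array 1 and 16.3 on array 2.

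Tff2 encodes spasmolytic polypeptide, the trefoil peptide of neck and gland mucous cells, which is stored with the mucin Muc6. Its probe is shown whole, since all 3 of its reading frames are free of stop codons. The files give it a span of 825 bases, chr17:31279256-31280080 (mm9), for its 60 bases:
Tff2: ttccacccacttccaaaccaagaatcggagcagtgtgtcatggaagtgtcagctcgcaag
On array 1 the intensity was 216689 in GFPhigh and 93984 in GFPlow. On array 2 it was 123746 in GFPhigh and 141721 in GFPlow, so before normalization GFPlow was slightly the brighter there. After subtraction of the local background the signal in GFPhigh was 2.31 times that in GFPlow on array 1 and 0.873 times on array 2. Normalization for the dyes gave log2 ratios of 0.95 and 2.68, a mean of 1.82 ± 1.22. Tff2 missed the 2-fold limit on array 1 by little (1.93-fold) and is not counted as higher in either population, although only 36 genes had a higher mean. With the signals as the scanner software had processed them it was 1.83 on array 1 and 2.46 on array 2 and would be counted, and with each array centred on its median in place of loess, the intensity-dependent dye correction, it was 1.16 and 0.02 and would not. With a smaller offset in the background correction (16) and the same loess it was 1.18 and 2.48 and would also be counted. Whether Tff2 passes 2-fold therefore depends on the background correction as well as on the dye correction.

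Tff3 encodes the intestinal trefoil factor. Its probe lies at chr17:31262279-31262338 (mm9) and begins with these bases:
Tff3: ctgctgcaggccaataaaggagccaggagt
Its intensity was 234 in GFPhigh and 259 in GFPlow on array 1, and 230 and 286 on array 2, over local backgrounds of 57 and 139 and of 135 and 55. It was well above background in GFPlow on both arrays and in GFPhigh on array 1 only. Its log2 ratios of 0.14 (array 1) and 0.07 (array 2) had a mean of 0.10 ± 0.05. It was the only member whose sign changed with the processing: it was -0.07 with the processed signals, -0.22 with median centring and -0.68 with the spike-in RNA probes set to a ratio of 1 (spike-in centring), and the 2-fold limit was reached in none of these. With its mean ratio above 0, the population tested for signal was GFPhigh, and for that reason Tff3 is not among the genes compared. The direction of its ratio was not settled by these arrays.

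The 6 probes had no stretch of 20 bases in common with any other gene probe on the array, and the longest run that any pair of them shared was 10 bases (Gkn1 and Tff3). No member spot was marked as an outlier or as saturated.

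**Figure D2:**
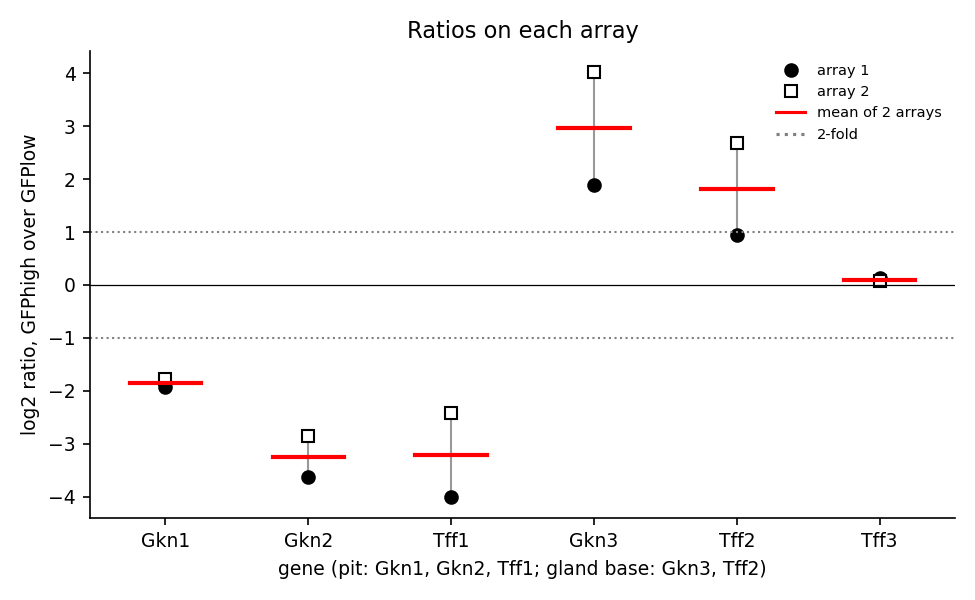
Log2 ratio of GFPhigh over GFPlow of each member on array 1 (filled circles) and array 2 (open squares), with the mean of the 2 arrays in red and 2-fold marked by dotted lines. Gkn1 (a bound, drawn at its measured ratio), Gkn2 and Tff1 lie below -1 on both arrays, Gkn3 lies above 1 on both, Tff2 is above 1 on array 2 only, and Tff3 is near 0.

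The contrast between surface and gland base was taken within each array, as the mean log2 ratio of Gkn1, Gkn2 and Tff1 minus that of Gkn3 and Tff2. A shift common to all probes cancels in this difference. The pit mean was -3.19 on array 1 and -2.34 on array 2, and the gland-base mean was 1.42 and 3.35. Their difference of -4.60 (array 1) and -5.70 (array 2) averaged -5.15 ± 0.77. No fold is drawn from it, because Gkn1 was not above background in GFPhigh. Without Gkn1, a choice made after the values were seen, the difference was -5.61 ± 0.53, or 48.7-fold. The 4 pairs of Gkn2 or Tff1 with a gland-base member differed in this direction on both arrays, from -5.02 ± 0.10 (Tff1 against Tff2) to -6.20 ± 0.96 (Gkn2 against Gkn3). The pairs with Gkn1 had the same direction, with sizes that rest on its dim signal. The pairs shared members, so they are not separate measurements.

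In the processing used here, the difference between the trefoil genes was steadier than either ratio, and had the smallest SD of the pairs. That rank depends on the processing: with the processed signals the SD was 0.18, against 0.02 for Gkn1 minus Gkn3. As processed here, Tff1 minus Tff2, at -4.95 (array 1) and -5.09 (array 2), averaged -5.02 ± 0.10, while the SD was 1.12 for Tff1 and 1.22 for Tff2. Over 7 ways of processing (the one used here, no background correction, a smaller offset, the processed signals, the authors' deposited value table, and median or spike-in centring), this difference ran from -5.13 to -4.89. Spike-in centring shifts all genes alike and cannot move it, and the value table repeats the processed signals. Gkn2 minus Gkn3 ran from -6.37 to -5.98. Between the arrays it was not steadier than both of its ratios: its SD was 0.96, against 0.55 for Gkn2 and 1.51 for Gkn3. By contrast Gkn1 minus Gkn3 ran from -7.49 to -3.90, and Gkn1 alone from -4.18 with the authors' deposited ratios to -1.20 without background correction. On array 1 the average signal of 3 gene probes was above that of Gkn3, of 4 above that of Tff2, of 40 above that of Tff1 and of 83 above that of Gkn2, so few spots guided the dye correction at their brightness. The part of this in the spread between the arrays was not tested.

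**Figure D3:**
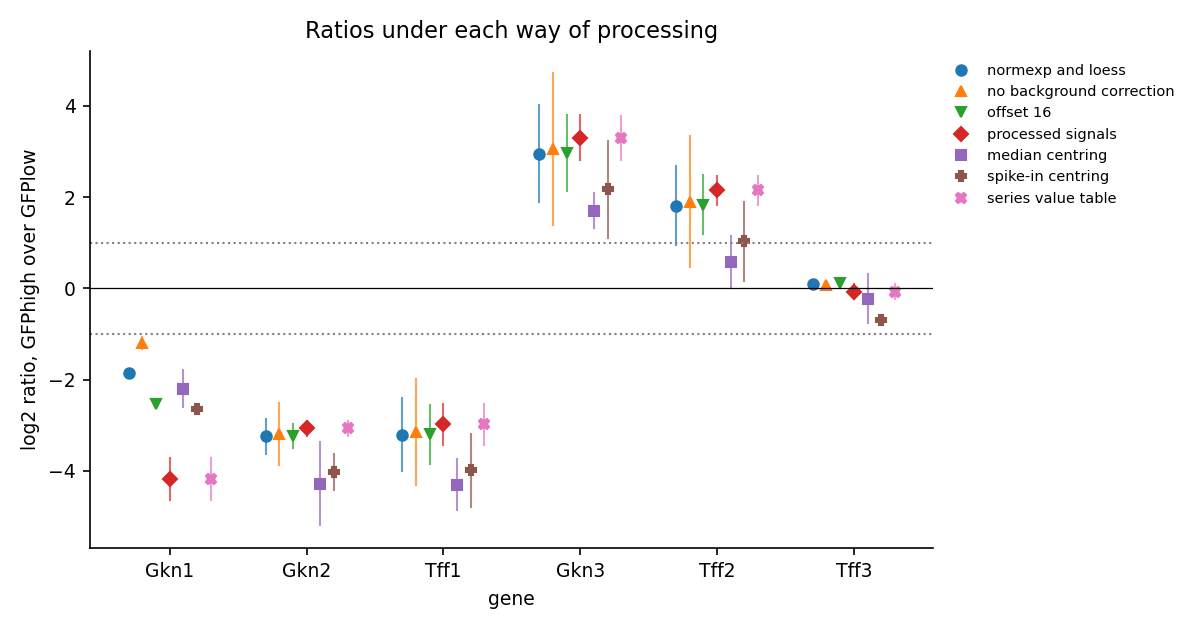
Log2 ratio of GFPhigh over GFPlow of each member under 7 ways of processing; symbols are the mean of the 2 arrays, lines run from one array to the other, and dotted lines mark 2-fold. Gkn1, Gkn2 and Tff1 stay below -1 and Gkn3 above 1 on both arrays in all 7, Tff2 reaches 2-fold on both arrays in 3, and Tff3 lies on both sides of 0.

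**Figure D4:**
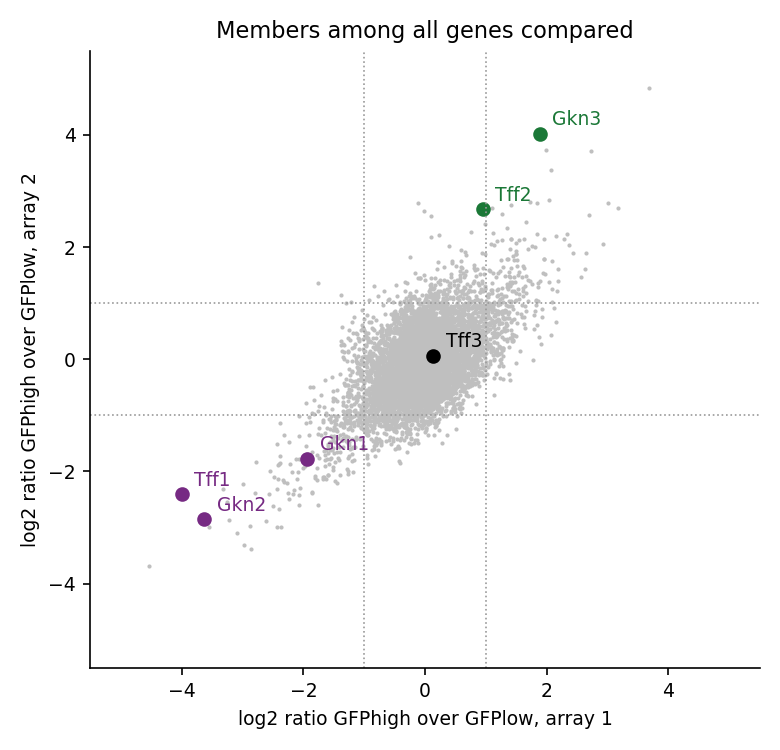
Log2 ratio on array 2 against array 1 for the 7819 genes compared (grey) and the 6 members (coloured, with Tff3 in black), with 2-fold marked by dotted lines. Gkn2, Tff1 and Gkn3 lie at the ends of the cloud, Gkn1 and Tff2 inside its tails, and Tff3 at its centre.

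The members lie in 2 gene clusters, and both clusters held members with opposite ratios. In the RefSeq gene table the order on chromosome 6 is Gkn1, Gkn2, Gkn3 and the order on chromosome 17 is Tff3, Tff2, Tff1, with no other named protein-coding gene between them. Gkn2 (-3.24) and its neighbour Gkn3 (2.96) thus stood at opposite ends of the genes compared. Tff1 (-3.20) and its neighbour Tff2 (1.82) had mean ratios of opposite sign, with the limit on Tff2 given above. Of the 3 nearest named protein-coding genes on each side of the gastrokines, Gfpt1, the enzyme that makes the sugar precursor for protein glycosylation, was measured and was higher in GFPhigh (mean 1.52 ± 0.03), though not under median or spike-in centring. D6Ertd527e, Antxr1, Bmp10, Arhgap25 and Prokr1 were not well above background on both arrays in either population. Around the trefoil genes the same held for Glp1r, Umodl1, Abcg1, Tmprss3, Ubash3a and Rsph1, so the trefoil cluster had no measured neighbour.

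The 250 bases before the start of each gastrokine gene are printed because these adjacent genes differed in direction. They are from RefSeq (GRCm38.p6) and were found for 3 of the 6 members. Gkn1 is at chr6:87350916-87351165 on the minus strand, Gkn2 at chr6:87373115-87373364 on the plus strand and Gkn3 at chr6:87388936-87389185 on the minus strand. Capitals mark matches to the motifs below:
Gkn1: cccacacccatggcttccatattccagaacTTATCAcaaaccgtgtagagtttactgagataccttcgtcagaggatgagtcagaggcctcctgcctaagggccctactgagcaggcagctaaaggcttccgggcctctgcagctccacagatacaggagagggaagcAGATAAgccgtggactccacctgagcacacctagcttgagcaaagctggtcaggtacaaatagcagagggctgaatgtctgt
Gkn2: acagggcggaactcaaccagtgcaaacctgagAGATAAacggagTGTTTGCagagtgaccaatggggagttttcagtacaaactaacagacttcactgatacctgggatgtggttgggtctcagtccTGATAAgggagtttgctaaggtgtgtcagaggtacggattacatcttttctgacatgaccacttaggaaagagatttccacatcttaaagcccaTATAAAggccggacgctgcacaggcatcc
Gkn3: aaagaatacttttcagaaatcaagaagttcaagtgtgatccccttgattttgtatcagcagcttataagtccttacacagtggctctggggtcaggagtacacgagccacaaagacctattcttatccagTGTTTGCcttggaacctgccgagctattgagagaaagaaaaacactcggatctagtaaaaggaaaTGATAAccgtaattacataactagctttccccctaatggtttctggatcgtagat
The motifs searched on both strands were the GATA boxes AGATAA and TGATAA, the forkhead words TGTTTAC and TGTTTGC, the TATA box TATAAA and the HNF1 motif. A GATA box was found in all 3 promoters, with 2 matches in Gkn1, 2 in Gkn2 and 1 in Gkn3, and in 16.6% of 32851 promoters. The forkhead word TGTTTGC was found in Gkn2 and Gkn3, where 7.29% of promoters hold a forkhead word. The TATA box was found in Gkn2 only, from base -29 to -24, and in 12.4% of promoters. The HNF1 motif was found in none of the 3 and in 0.00913% of promoters. The GATA and forkhead words were thus shared by genes that differed in direction, and a match is a description of the letters, not a binding site.

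Other products of the same cells were set beside the members, in lists written with earlier results of these data known. Of 20 surface pit genes 15 were measured, of which 5 were higher in GFPlow and 0 in GFPhigh. Besides the 3 members these were the mucin gene Muc5ac, at -2.07 and -2.59 (mean -2.33 ± 0.37), and the annexin gene Anxa10, at -2.32 and -1.36 (mean -1.84 ± 0.68). The 12 measured genes without the members had a median of -0.30, against -0.06 for all genes. Muc5ac and Anxa10 were counted in all 7 ways of processing. With the processed signals or the value table, 1 of the 12 was counted in GFPhigh. With spike-in centring 5 of the 12 were counted in GFPlow, but so were 1639 of all 8188 genes compared. The median was then -1.09 for the 12 and -0.81 for all genes. Sult1c2, a sulfotransferase gene, was at -0.82 ± 0.11 and Vsig1, a stomach junction protein gene, at -0.66 ± 0.17, while Hpgd, which degrades prostaglandins, was at 0.65 ± 0.65. All 12 pit genes outside the family were closer to 0 than Gkn2 and Tff1.

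Of 15 genes of gland mucous cells 13 were measured. GFPhigh had the higher level of 6 and GFPlow of 0. Without Gkn3 and Tff2, 5 of 11 were higher in GFPhigh, and the median was 1.16. They were the protease precursor gene Pgc (2.73 and 3.71), which is also one of the chief cell markers above, the water channel gene Aqp5 (2.07 and 3.37), the transcription factor gene Creb3l4 (1.55 and 2.13), A4gnt (mean 1.69 ± 0.27) and Spdef (1.52 and 1.77). A4gnt makes the sugar cap that is typical of gland mucus, and Spdef is a transcription factor of mucous and goblet cells. Muc6, the mucin that accompanies Tff2, was at 1.26 and 0.86 (mean 1.06 ± 0.28) and missed 2-fold on array 2. The median without members lay above that of all genes in each of the 7 ways of processing, although the count of genes higher in GFPhigh ran from 2 to 8. Pgc and Aqp5 were counted in all 7, while A4gnt, Creb3l4 and Spdef were not under median or spike-in centring. Median centring and spike-in centring lowered the median of all genes to -0.49 and -0.81, and the gland mucous median was then 0.64 and 0.38.

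Few of the 15 goblet cell genes listed beside Tff3 were measured, 6 in all, of which 3 were higher in GFPlow and 1 in GFPhigh. Those in GFPlow were the transcription factor gene Klf4 (-1.27 and -2.05), the goblet peptide gene Spink4 (-1.67 and -1.12) and Clca1 (-1.17 and -1.02), which was not above background in GFPhigh. Spdef was the one in GFPhigh. Without background correction Spink4 and Clca1 fell short of 2-fold, with median centring Klf4, Clca1 and Spdef did, and with spike-in centring Spdef did. With the processed signals or the value table, 2 of the 6 were counted in GFPhigh. Agr2, a disulfide isomerase that mucins need, was at 0.09 on array 1 and 2.17 on array 2. Muc2, the goblet cell mucin, and Zg16, Retnlb and Atoh1 were not above background on any array in either population.

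Proteins reported to bind trefoil peptides or gastrokines, or to act as their receptors, were mostly not measured. Of 16, 6 were measured, and 4 of these were higher in GFPlow: Gkn2, Tff1, Muc5ac and Dmbt1. Dmbt1, a mucosal glycoprotein, was at -3.54 and -2.99 (mean -3.27 ± 0.39). The receptor gene Egfr was at -0.61 and -0.32 and was above background in GFPhigh on 1 array. Cxcr4 and Lingo2, proposed trefoil receptors, were not above background on either array. So the mucin of pit cells lay on the side of Tff1, and the 2 measured partners outside the family that were counted lay with the pit members. Muc6 leaned to GFPhigh, at 1.26 and 0.86, and was counted in neither population. With an offset of 16, the processed signals or the value table, 1 partner outside the family was counted in GFPhigh.

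**Figure D5:**
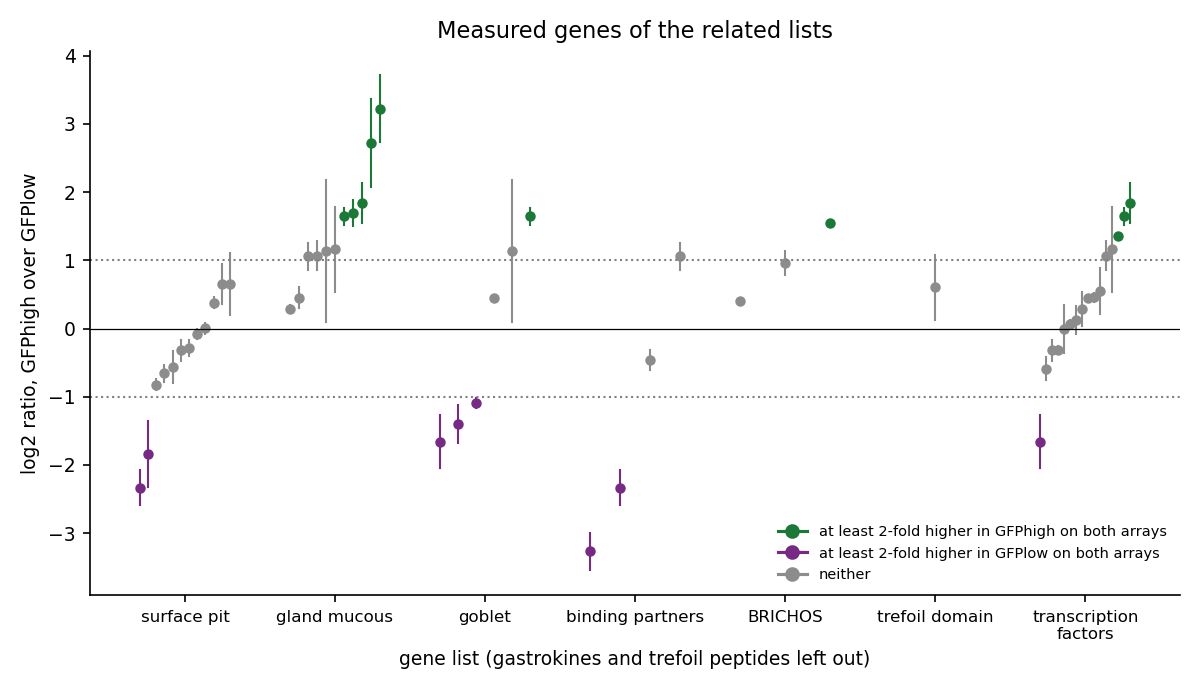
Log2 ratio of GFPhigh over GFPlow of the measured genes of 7 related lists, with the members left out; points are means of the 2 arrays, lines join the arrays, and colour marks genes at least 2-fold higher in GFPhigh (green) or GFPlow (purple) on both arrays. Among gland mucous genes 5 of 11 are green and none is purple, and among surface pit genes 2 of 12 are purple and none is green.

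Few relatives by protein domain were measured. Of 7 other BRICHOS genes 3 were measured, all of the integral membrane family Itm2: Itm2c was higher in GFPhigh (1.54 and 1.55) but not under median or spike-in centring, Itm2a was at 1.13 and 0.78 and Itm2b at 0.43 and 0.38. With the processed signals or the value table, 2 of these 3 were counted in GFPhigh. Of the other trefoil-domain genes only Gaa, a lysosomal glucosidase, was measured, at 1.08 and 0.13. Of 26 transcription factor genes of gastric mucous cells 16 were measured, 3 of them higher in GFPhigh and 1 in GFPlow. Those in GFPhigh were Creb3l4, Spdef and Sox9 (1.36 ± 0.06), and the one in GFPlow was Klf4. None of these 4 was counted with median centring, and the 3 in GFPhigh were not with spike-in centring. There 3 of the 16 were higher in GFPlow, as were 1639 of all 8188 genes compared. With the processed signals or the value table, 4 of the 16 were counted in GFPhigh. Xbp1, a regulator of secretory capacity, was at 1.16 ± 0.88 and Bhlha15 at 1.07 ± 0.30. The median of this list was 0.37, but -0.07 with median centring and -0.42 with spike-in centring, so its sign depends on the centring. The GATA factor genes Gata5 (0.46 ± 0.09) and Gata6 (0.07 ± 0.07) were not 2-fold apart. The same held for the forkhead factor genes Foxa2 (0.29 ± 0.35), Foxa3 (0.55 ± 0.47) and Foxq1 (-0.32 ± 0.21). Gata4 and Foxa1 were not measured.

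The genes with the most similar pair of array ratios were sought among 6218 genes above background in both populations, by the Euclidean distance of the 2 log2 ratios. With 2 arrays this measure reflects size and direction only. The nearest to Gkn2 were Dmbt1 (distance 0.16), the leukocyte and epithelial gene Plac8 (0.40) and the hormone granule gene Chgb (0.49). The nearest to Tff1 were Gkn2 (0.58), the hormone gene Ghrl (0.68) and Dmbt1 (0.74). The nearest to Gkn3 were a transcript known by an identifier only (0.31), Aqp5 (0.68) and Pgc (0.90). The nearest to Tff2 were the major urinary protein genes Mup4 (0.15) and Mup1 (0.32) and the phosphoprotein gene Spp1 (0.27). The Mup genes are near-identical copies whose probes may share transcripts, so their identity is uncertain.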

How the data were processed

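The authors deposited scanner output of 2 two-colour Agilent arrays. It gives mean spot intensity and median local background intensity per channel, per the file headers, and processed intensity (background-subtracted, detrended and dye-normalized). The deposited log10 ratio is that of processed Cy5 over Cy3, per the file headers, which give the software as Feature Extraction 10.5.1.1. The version per the submitters' processing notes is 9.5.3. RNA was isolated with Trizol and 150 ng was labelled by linear amplification, per the labels' protocols. A value table of the series, set against the scanner values, held the log10 ratios as GFPhigh over GFPlow (largest differences 4.98e-06 and 0.0050), with column medians of 0.0188 and -0.0458, and served as an alternative.

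The normexp method of limma 3.58.1 (R 4.3.3; offset 50) removed the local background from the mean signals. Loess, fitted per array on all spots but controls, removed dye bias. The offset pulls ratios of dim probes towards 0. The labelled dyes set the direction, GFPhigh over GFPlow. Spots marked as outliers were left out. A probe entered if the population favoured by its mean normalized ratio passed the scanner's background test on each array, and a gene was read from its brightest such probe. Levels for the bound were taken per channel after Aquantile normalization. Spike-in centring set the mean ratio of 10 spike-in probes (0.78) to 0. Of 41174 probes, 25097 were named through their RefSeq accession, 166 through another accession, 6233 by symbol and 1603 by an older symbol (GRCm38.p6 table), and 8075 kept the name in the file.

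The steps were checked on simulated arrays. These had the same dye bias on both arrays and ratios smaller than those of Gkn2, Tff1 and Gkn3. The check therefore does not cover the spread between the arrays seen for the brightest members. Named were all members, of each list the genes past 2-fold on both arrays and up to 4 with the largest absolute ratios, the 3 nearest genes of each member above background in both populations, and the 3 neighbours on each side of a cluster. Names beyond these, such as further list members not above background, were chosen after the values were seen. Members and lists were chosen with earlier results of these data known.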

Additional observations from a re-analysis of the deposited data

How the results depend on the processing

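No paired analysis was possible because both arrays hold the same pair of RNA samples. Gkn1, Gkn2, Tff1 and Gkn3 kept their direction under every alternative run for them, and the sign of Tff3 changed under 4 of 10. Among these 10, averaging probes and keeping outlier marks could not move a member, as none had further probes or marked spots. The value table repeats the processed signals. With no background correction Gkn1 was at -1.20, and with an offset of 16 at -2.54. With the processed signals Gkn1 was at -4.17, Tff3 at -0.0693, the pit minus gland-base difference at -6.13, and the counts were 352 genes higher in GFPhigh and 511 in GFPlow, with 14 list genes in GFPhigh in place of 8. With the value table these were -4.18, -0.0693, -6.13, 352, 507 and 14. With median centring Gkn1 was at -2.20, Gkn2 at -4.28, Tff2 at 0.59 and Tff3 at -0.22, with 10 genes higher in GFPhigh (3 list genes). With spike-in centring Gkn1 was at -2.64, Gkn2 at -4.03 and Tff3 at -0.68, with 21 genes in GFPhigh (3 list genes) and 1639 in GFPlow (15 list genes, in place of 9). At 1.5-fold the counts were 438 and 587. With array 1 or array 2 alone, the genes in GFPhigh numbered 347 to 371, those in GFPlow 397 to 497 and the list genes in GFPhigh 11 to 13, while the pit minus gland-base difference ran from -5.70 to -4.60. Averaging all probes of a gene, keeping outlier marks or dropping the filter on dim probes moved no count by over 1.5 times. Signal over background limits Gkn1 in GFPhigh and Tff3.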
